A study of Rattus norvegicus with 8 samples.

Results

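The genes described here encode the proteins of the cytosolic ribosome and the factors that start and extend protein synthesis. They were taken from an array annotation table: every probe set whose only gene symbol begins with Rpl, Rps, Eef or Eif was included, the Rps6k and Eif2ak kinases were left out, and each gene was represented by its probe set with the highest mean signal. This gave 67 of the 4736 genes on the array, covered by 102 probe sets. By role they were 14 genes of the small ribosomal subunit, 30 of the large subunit, 18 initiation factor genes and 5 elongation factor genes. Roles follow the start of the symbol, so the kinase gene Eef2k counts with the elongation factors and the inhibitor gene Eif4ebp1 with the initiation factors. The rule used names and mean signal, not the difference between conditions.

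RNA came from 8 samples of Htt14A2.5, a stable line of rat PC12 cells, which derive from a tumour of the adrenal medulla. Per the labels the line carries a truncated, mutant first exon of human huntingtin, the protein altered in Huntington's disease, under an inducible control. The 4 induced samples had received ponasterone (PA), a steroid inducer, for 48 h, and the 4 uninduced samples had not. Titles set the groups, because the free-text description of all 8 samples mentions induction. Both groups share the integrated transgene and the line, and the sources used here do not say that replicates were separate cultures, so p-values measure the spread between these samples, which may be technical. Without a parental line given ponasterone, effects of the steroid and of the huntingtin fragment cannot be told apart.

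A ribosome consists of a small subunit, which reads the mRNA, and a large subunit, which joins amino acids. Initiation factors bring the initiator tRNA, the mRNA cap and the small subunit together: eIF2 carries the tRNA, eIF2B recharges eIF2 with GTP, eIF3 is a scaffold on the small subunit, and the eIF4 group binds and unwinds the capped end. Elongation factors then deliver each charged tRNA (eEF1) and move the ribosome along (eEF2). In mammals the mRNAs of most ribosomal proteins and of several factors start with a C followed by a run of pyrimidines, the terminal oligopyrimidine (TOP) tract, through which their translation responds to growth signals via mTOR.

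Because this start sequence is the best known feature that ribosomal protein mRNAs share, it was looked for at the annotated starts. A tract was counted where a C followed by at least 6 bases that were each C or T lay wholly within 20 bases before to 20 bases after the annotated start, on the transcript strand. RefSeq promoters on GRCr8 were matched for 60 of the 67 genes, which lie on 17 chromosomes. The windows shown span 15 bases before and 15 after the start, 5′ to 3′ on the transcript strand, with the tract in capitals. They are those of some ribosomal genes and factors that the results describe with their signals, and of Rpl19, whose difference was near 0. Windows of other genes so described are not shown, among them Rps16 and Rps6, where no tract was found. At Rps3 and Rpl7a the tract begins before the window.
Rplp0, chr12:46718376-46718405, minus strand: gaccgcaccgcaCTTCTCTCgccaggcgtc
Rps3, chr1:163195762-163195791, minus strand: TTCCTTTCagcggcgcgcggcagcaagatg
Rpl7a, chr3:30637121-30637150, plus strand: CTCTCCTCCagccgagcaagatggtgagtg
Rpl22, chr5:168117946-168117975, plus strand: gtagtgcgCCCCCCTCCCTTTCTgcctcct
Rpl23, chr10:83272170-83272199, minus strand: actaaCTTCCTTTCTgactctttccggacg
Rps15, chr7:10068101-10068130, minus strand: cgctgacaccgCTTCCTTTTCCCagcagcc
Rpl36, chr9:1533765-1533794, plus strand: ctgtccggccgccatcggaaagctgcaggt
Rpl6, chr12:41011676-41011705, minus strand: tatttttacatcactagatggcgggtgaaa
Rpl19, chr10:83519049-83519078, plus strand: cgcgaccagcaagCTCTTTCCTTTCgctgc
Eef1a1, chr8:88225055-88225084, minus strand: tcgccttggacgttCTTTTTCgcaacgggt
Eef1a2, chr3:188652619-188652648, minus strand: cgctcgggtacatctctgcagctgcgtcct
Eif4e, chr2:229740738-229740767, plus strand: agcggttgtgcgatcagatcgatctaagat
Of the genes shown, no tract was found at Rpl36, Rpl6, Eef1a2 and Eif4e. Of all 38 ribosomal starts, 25 held 1. Eef1a1 and Eef1a2, which encode close relatives, differed in having a tract.

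The tract was frequent at ribosomal gene starts and less so at those of initiation factors, a difference that was not tested. It was found at 7 of 11 small subunit starts (63.6%), 18 of 27 large subunit starts (66.7%), 3 of 5 elongation factor starts (60%) and 4 of 17 initiation factor starts (23.5%). Of all 27457 RefSeq promoters, 4886 held it (17.8%). On either strand the share was 73.7% for ribosomal genes and 35.8% for all promoters. A match is a description of the letters near an annotated start and not a mapped RNA end.

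**Figure D1:**
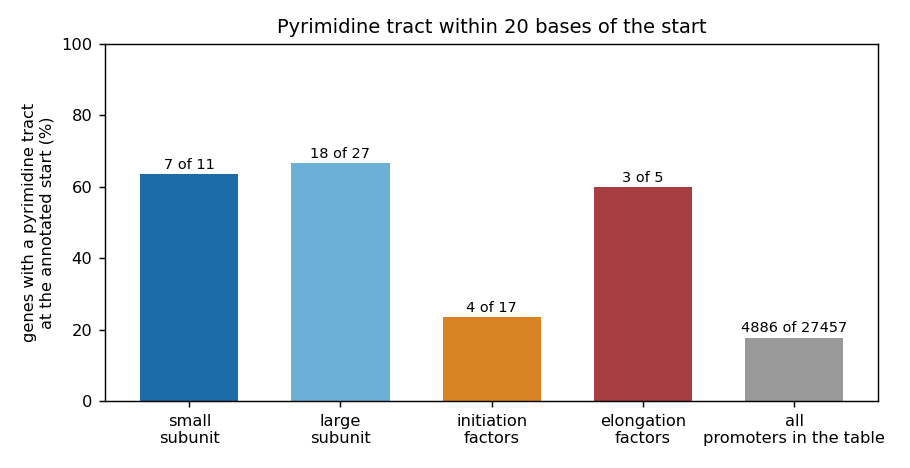
Share of genes with a pyrimidine tract at the annotated start, in percent, for each role and for all promoters of the RefSeq table; the counts stand above the bars. Both subunits lie above 60%, and initiation factors at 23.5% are closest to the 17.8% of all promoters.

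The deposited values are scaled signals, linear and positive, with no detection calls. As a reference for low signal, the 95th percentile of 38 control probe sets for foreign sequences or the reverse strand lay between 102 and 183 over the 8 arrays. Of the 67 genes, 65 passed a filter on low mean signal (36.0) and were tested; Rps2-ps1 (mean signal 34.9) and Rplp1l3 (7.1), both annotated as gene copies, did not. The probe sets used for Eif3m, Rpl5 and Rpl30 had a mean signal under 183, and the error of their log2 difference was 0.26 to 0.58. Probe sets that name Rpl5 or Rpl30 together with their copies read means of 6871 and 1177 and differed by 0.06 ± 0.08 and 0.04 ± 0.15. Annotations of ribosomal protein genes need care, since rodent genomes hold many processed copies and a probe set can bind several of them.

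A pair of arrays stood apart for some of these genes. Among 1284 probe sets with a mean signal of at least 1000, induced replicate 3 read under 60% of every other array for 12 (0.935%). Of these, 4 represent Rplp0, Rps3, Rpl7a and Rpl21, out of 75 such probe sets of the family with 1 symbol. Probe sets that name Rpl7a or Rpl9 together with other symbols were also among the 12 (3112, 2808 and 1864 on that array). Induced replicate 4 was that low for 4 probe sets (0.312%), both Rpl23 probe sets among them, and each other array for 0 to 2. On induced replicate 3 the probe set for the 3′ end of beta-actin mRNA also read 16020 against 28669 to 36098 elsewhere, while the probe set for its 5′ end read 25489 against 22127 to 29402. The part of this in the results was not tested; for Rplp0, Rps3, Rpl7a, Rpl23, Rpl19l4, Eif4h, Eif4e and Eif4ebp1 the values without such an array are given.

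Marker genes were read on the same arrays, where 7.06% of all probe sets tested were called (adjusted p under 0.05 in limma). Of 12 chromaffin cell markers 7 were tested; Gch1 rose and Phox2a fell, and the granule protein Chgb read a mean of 11593. The defining catecholamine enzymes Th (61.1), Dbh (9.4) and Ddc (27.4) had mean signals under the control range or the filter. Of 6 fibroblast markers 5 were tested, 0 were called, and their summed signal ran from 1407 to 1784 in uninduced and 1552 to 1921 in induced samples. Of 6 Schwann cell and glial markers 3 were tested and Pmp22 rose, a call kept in 11 of 18 alternative fits (sums 394 to 587 and 558 to 754). Leukocyte (sums 204 to 357 and 178 to 506) and adrenal cortex markers (sums 80.8 to 214 and 65.8 to 148) had 0 calls among 2 and 1 tested. In bulk RNA, fewer cells of a type and less RNA per cell cannot be told apart.

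Induction was accompanied by a call for 1 of the 65 tested genes. Eef1a2 rose, 0 genes fell, and 64 did not pass an adjusted p of 0.05 in limma with Benjamini-Hochberg adjustment over all 6129 probe sets tested. Over the whole array 433 probe sets were called (7.06%), 251 higher (4.1%) and 182 lower (2.97%); after median centring of the arrays these were 166 and 63. Among probe sets with a mean signal of at least 1000, where most of these genes lie, 15.9% were called. At an unadjusted p under 0.05, 3 of the 65 genes were higher (Eef1a2, Eef1a1 and Eif4e2) and 6 were lower, which is 4.62% and 9.23% against 8.75% and 9.28% of all probe sets tested.

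The 95% interval of the difference lay within a 1.5-fold change in either direction for 50 of the 65 genes. These were 34 of the 42 tested ribosomal genes, 13 of the 18 initiation factor genes and 3 of the 5 elongation factor genes. For the remaining 15 the interval reached beyond a 1.5-fold change.

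The roles differed in the direction in which most members lay. On the log2 scale, induced minus uninduced, the median was -0.14 for small subunit genes (12 of 13 below 0) and -0.10 for large subunit genes (21 of 29 below 0). It was 0.097 for initiation factor genes (13 of 18 above 0) and 0.10 for elongation factor genes (5 of 5 above 0). These counts rest on the brightest probe set of each gene and include Eif4ebp1 and Eef2k, whose other probe sets lay below 0. All probe sets tested had a median of -0.05, with 56.6% below 0, and those with a mean signal of at least 1000 a median of -0.02. For the ribosomal genes together the median was -0.12 and 78.6% lay below 0; the difference between roles was not tested, because genes are not replicates.

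**Figure D2:**
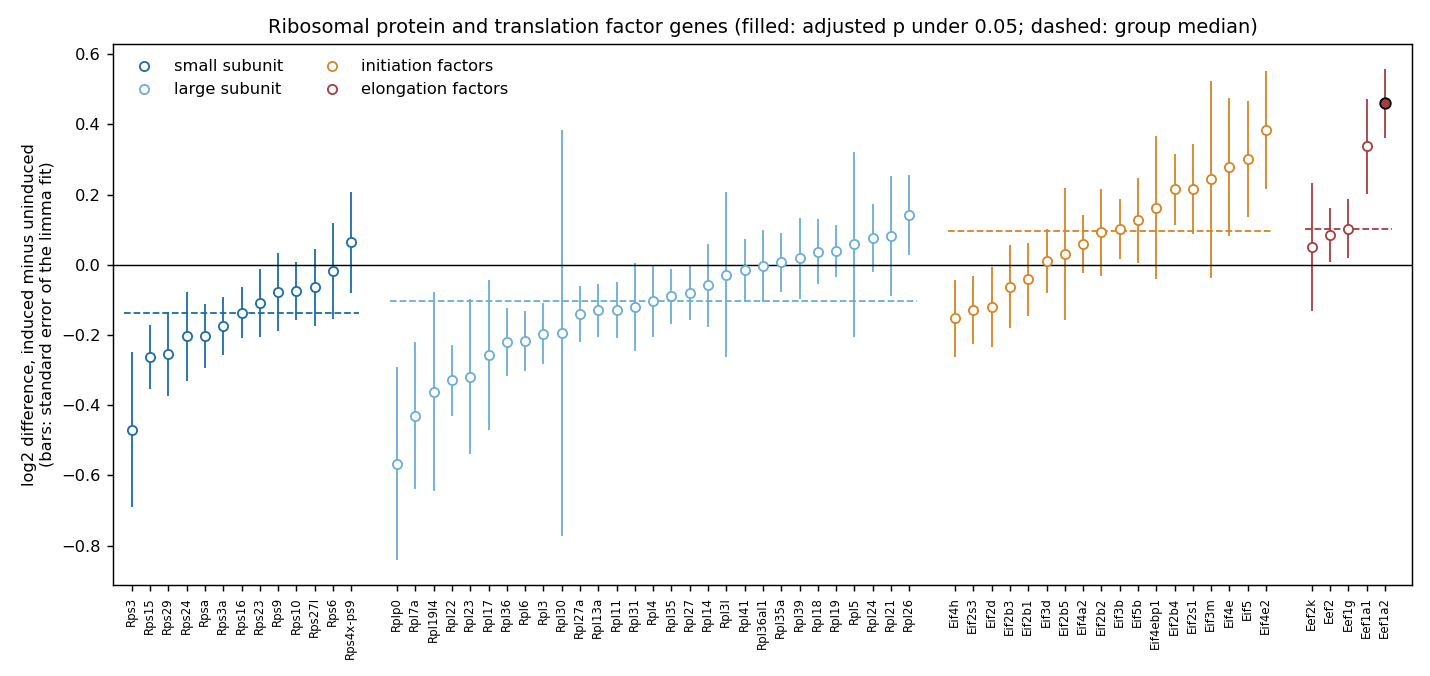
The log2 difference, induced minus uninduced, of the 65 tested genes, ordered within their role; bars are standard errors of the limma fit, dashed lines are medians of the role, and the filled point is the gene with an adjusted p under 0.05. The filled point is Eef1a2 at 0.46, and the lowest points, Rplp0 and Rps3, have the wide bars that go with their low signal on induced replicate 3.

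The medians were also read array by array. With each gene set to 0 at its own mean over the 8 arrays, the median of the ribosomal genes was 0.003, 0.11, 0.014 and 0.14 in uninduced replicates 1 to 4. It was -0.02, -0.03, -0.05 and -0.08 in induced replicates 1 to 4. With the deposited scaling every uninduced array thus lay above every induced one. However, uninduced replicates 1 and 3 lay nearer to induced replicates 1 to 3 than to uninduced replicates 2 and 4.

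The initiation factor genes had medians of -0.06, 0.05, -0.07 and 0.02 in the uninduced arrays. In the induced arrays they were -0.0005, 0.03, 0.03 and 0.09, and the groups overlapped. For all probe sets tested the medians were 0.05, 0.02, -0.02 and 0.09 in the uninduced and -0.08, -0.04, 0.05 and 0.09 in the induced arrays. The overall log2 level thus also differed between arrays. Minus these array medians, the ribosomal medians were -0.05, 0.09, 0.03 and 0.05 in the uninduced and 0.06, 0.02, -0.10 and -0.18 in the induced arrays, and the groups overlapped. After median centring of the arrays the fitted role medians were -0.10 for the small and -0.07 for the large subunit, 0.13 for initiation and 0.14 for elongation factors; after quantile normalization they were -0.11, -0.08, 0.087 and 0.090.

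**Figure D3:**
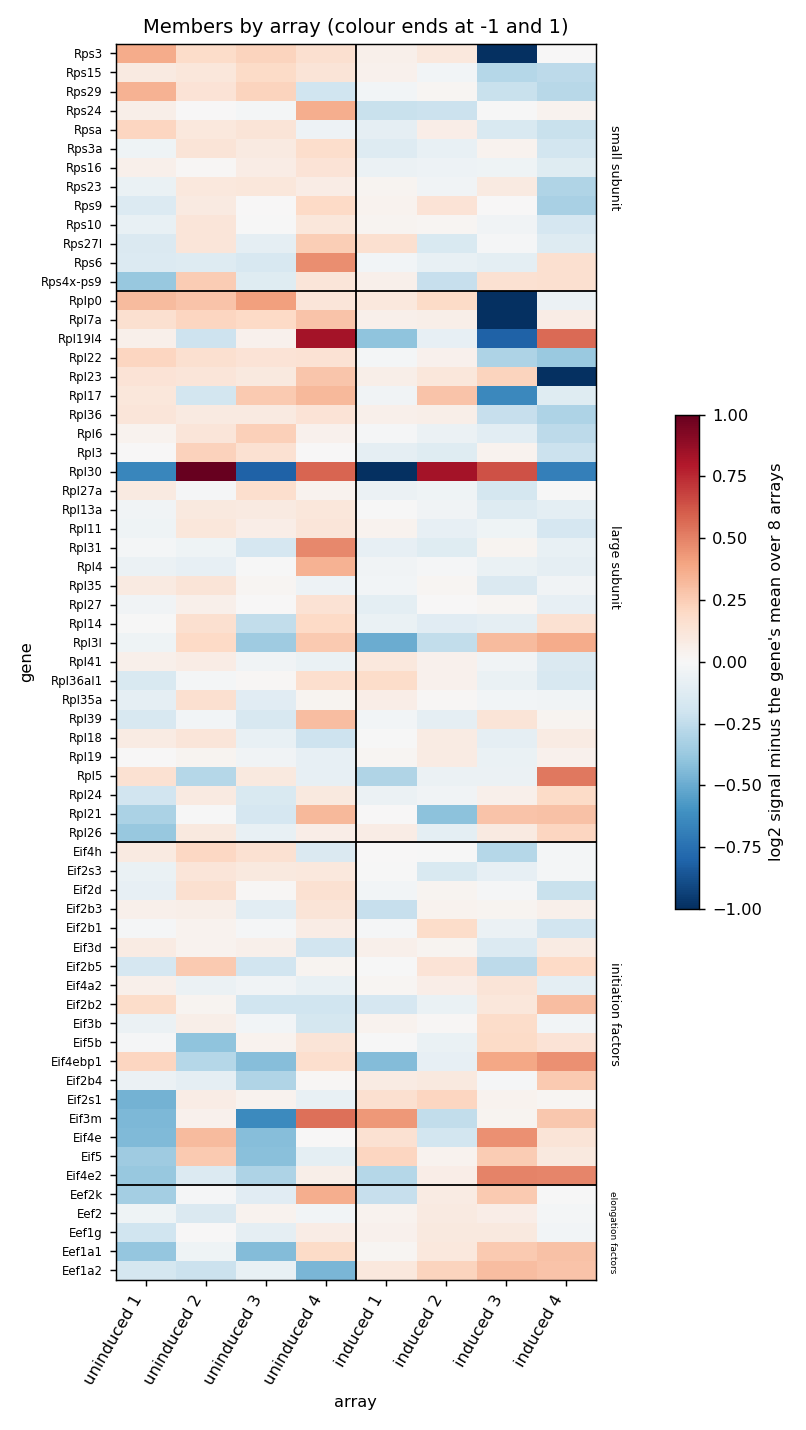
Log2 signal of the 65 tested genes on each of the 8 arrays, minus the gene's own mean, with genes grouped by role and ordered by their difference; the colour scale ends at -1 and 1. The low cells of Rplp0, Rps3 and Rpl7a sit on induced replicate 3 and that of Rpl23 on induced replicate 4, while Eef1a2 is higher on all 4 induced arrays.

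Among the elongation factors, Eef1a2 encodes the form of eEF1A that neurons and muscle use, which delivers charged tRNAs to the ribosome. Its signal was 2338, 2271, 2504 and 1915 in uninduced replicates 1 to 4 and 2841, 3074, 3263 and 3204 in induced replicates 1 to 4. All 4 induced arrays lay above all 4 uninduced ones. The means were 2257 ± 248 and 3096 ± 187 (SD, n = 4 each), a log2 difference of 0.46 ± 0.10 (SE) or 1.38-fold, with an adjusted p of 0.0141 in limma. The call was kept in each of the 8 fits without an array and was lost when the arrays were centred on their medians (0.49, adjusted p = 0.126), without the intensity trend (adjusted p = 0.0787) and without both samples numbered 2 (adjusted p = 0.102). Over all 6129 probe sets, 6.48% had every induced array above every uninduced one, and Eef1a2 was the only one of the 65 genes to do so.

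Eef1a1 encodes the widely expressed form of the same factor. Its signal was 2647, 3363, 2565 and 3953 in the uninduced and 3505, 3719, 4161 and 4249 in the induced replicates 1 to 4. Uninduced replicate 4 lay within the induced range, and the other uninduced arrays lay below it. The log2 difference was 0.34 ± 0.14 (adjusted p = 0.206), and it reached 0.46 (adjusted p = 0.0408) without uninduced replicate 4. The other probe set of the gene gave 0.10.

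Eef2 encodes the factor that moves the ribosome by a codon. Its signals of 17246, 16077, 18205 and 17457 in uninduced and 18196, 18921, 18537 and 17467 in induced arrays overlapped, with a log2 difference of 0.08 ± 0.08 (adjusted p = 0.645). The gene's 3 other probe sets gave 0.20 to 0.29, and none of them passed either (adjusted p 0.186 to 0.421). Eef2k encodes the kinase that inactivates eEF2 and differed by 0.05 ± 0.18, and its second probe set gave -0.01 ± 0.21. Eef1g, a subunit of the complex that recharges eEF1A, differed by 0.10 ± 0.08 (adjusted p = 0.605).

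Among large subunit genes, 3 of the lowest differences shrank when 1 array was left out. Rplp0 encodes the stalk protein P0, which holds the acidic proteins that contact elongation factors. It read 25577, 25129, 27369 and 22402 in the uninduced and 22122, 23528, 7946 and 19799 in the induced replicates 1 to 4. Induced replicate 3 was far below the other 7 arrays, and without it the groups still overlapped. The log2 difference was -0.57 ± 0.27 (adjusted p = 0.312) with that array and -0.20 ± 0.10 (adjusted p = 0.343) without it.

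Rpl7a and Rpl23, both large subunit proteins, and Rpl19l4 are described because their values stood out, outside the rule for naming genes. Rpl7a read 12181, 12651, 12478 and 13274 in the uninduced and 11254, 11347, 5278 and 11492 in the induced arrays. All induced arrays lay below all uninduced ones, with induced replicate 3 lowest by far. The difference of -0.43 ± 0.21 (adjusted p = 0.317) became -0.15 ± 0.08 (adjusted p = 0.371) without that array.

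Rpl23 read 22018, 21784, 21423 and 24185 in the uninduced and 20873, 21609, 23281 and 9781 in the induced arrays. Here induced replicate 4 was the low one, and the second probe set of the gene was also lowest there, at 2473 against 4655 to 7349 on the others. The difference was -0.32 ± 0.22 (adjusted p = 0.515) with that array and -0.03 ± 0.09 (adjusted p = 0.905) without it.

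Rpl22 came closest to a call among the ribosomal genes. The protein binds RNA and has a paralogue, Rpl22l1. It read 9352, 9007, 8849 and 8918 in the uninduced and 7949, 8294, 6498 and 6232 in the induced arrays. Every induced array was lower than every uninduced one, and the uninduced arrays lay close together. The difference was -0.33 ± 0.10 (adjusted p = 0.0844), and it passed only without induced replicate 2 (-0.40, adjusted p = 0.0485).

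**Figure D4:**
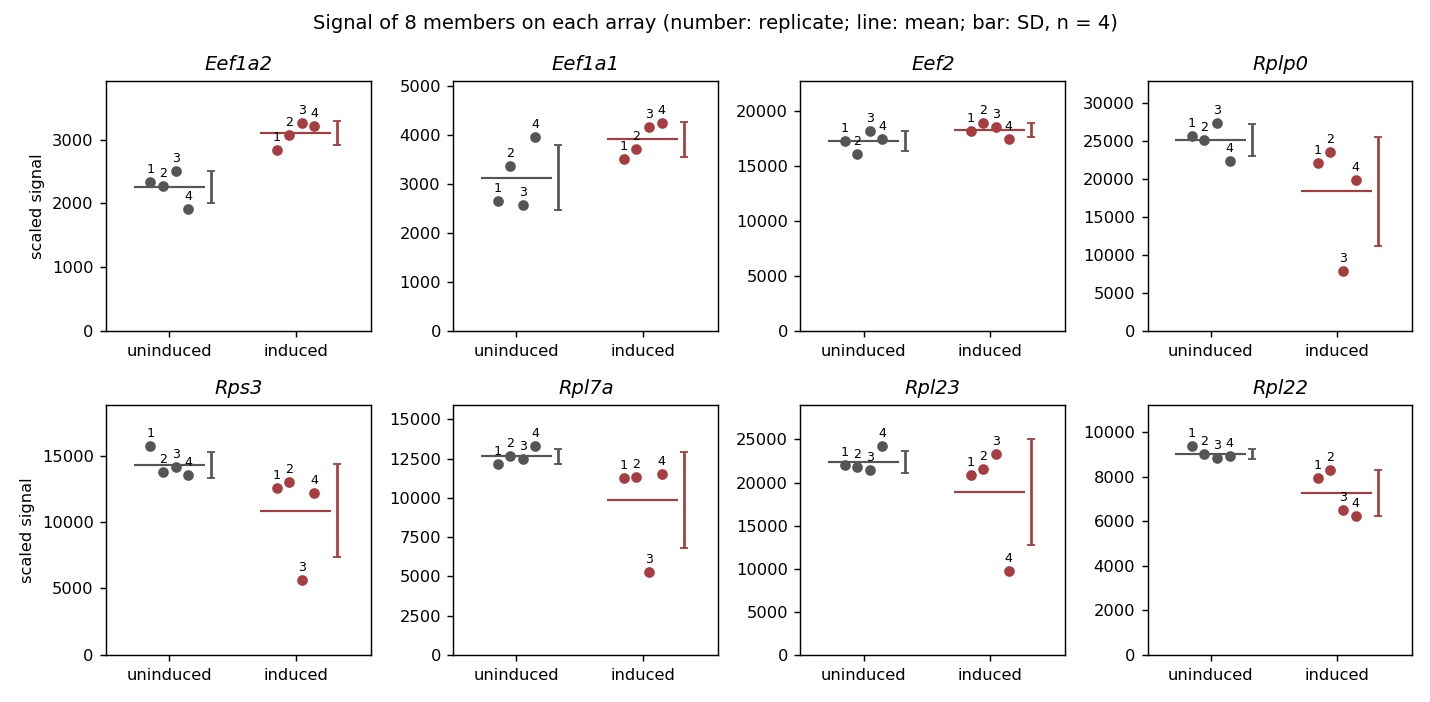
Scaled signal of 8 of the genes on each array; the number beside a point is its replicate, the horizontal line the mean and the bar the SD (n = 4 each), and the vertical axes start at 0. Eef1a2 has separate groups, Rplp0, Rps3 and Rpl7a each have a low point at induced replicate 3, and Rpl23 has one at induced replicate 4.

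Rpl19l4, annotated as a copy of Rpl19, differed by -0.36 ± 0.28 (adjusted p = 0.582); this was -0.15 without induced replicate 3, -0.61 without induced replicate 4 and -0.14 without uninduced replicate 4. The other large subunit genes lay between -0.26 and 0.14. Rpl6 (-0.22 ± 0.09, adjusted p = 0.191) and Rpl36 (-0.22 ± 0.10, adjusted p = 0.256) had every induced array below every uninduced one. Rpl6 read 14775 to 17005 in uninduced and 12058 to 14289 in induced samples, and Rpl36 read 7331 to 7584 and 5560 to 7168. Rpl3, which encodes a protein at the peptidyl transferase centre, differed by -0.20 ± 0.09 (adjusted p = 0.263) with overlapping groups. The highest difference of the subunit was that of Rpl26, a protein that also binds p53 mRNA, at 0.14 ± 0.11 (adjusted p = 0.595). Rpl24 differed by 0.08 ± 0.10 and Rpl19, with 22371 to 24153 in uninduced and 22602 to 25025 in induced samples, by 0.04 ± 0.08.

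Among small subunit genes, Rps3, whose protein lies at the mRNA entry channel, had the lowest value. It read 15694, 13790, 14131 and 13533 in the uninduced and 12582, 13004, 5643 and 12174 in the induced arrays. The groups did not overlap, and induced replicate 3 was again far below the rest. The difference was -0.47 ± 0.22 (adjusted p = 0.293), or -0.18 ± 0.09 (adjusted p = 0.329) without that array. The second probe set of Rps3, with 7916 to 8748 in uninduced and 5210 to 8041 in induced samples, gave -0.30.

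Rps15 encodes a protein of the small subunit head. It read 10828, 11044, 11662 and 11171 in the uninduced and 10493, 10013, 8389 and 8529 in the induced arrays. Every induced array was lower, with replicates 3 and 4 lowest, and the difference was -0.26 ± 0.09 (adjusted p = 0.130). The gene's other probe sets gave 0.08 and -0.02, so the 3 did not share a direction.

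Rps16 had groups that did not overlap, with 17055 to 18594 in uninduced and 15558 to 16383 in induced samples, and differed by -0.14 ± 0.07 (adjusted p = 0.368). Rpsa, which encodes a ribosomal protein also described as a laminin receptor, differed by -0.20 ± 0.09 (adjusted p = 0.265). Rps29 differed by -0.25 ± 0.12 (adjusted p = 0.299), and passed without uninduced replicate 4 (-0.36, adjusted p = 0.0480), while its second probe set gave -0.04 ± 0.11 (adjusted p = 0.911). Rps6 encodes the protein that S6 kinases phosphorylate and differed by -0.02 ± 0.14; uninduced replicate 4 read 5192 against 3374 to 3438 in the other uninduced arrays. Its second probe set was lowest on that array instead (2756 against 3506 to 3834). Rps4x-ps9, annotated as a pseudogene copy, was the only small subunit gene above 0, at 0.06 ± 0.14.

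Counted by separation, 7 genes had every induced array below every uninduced one: Rpl36, Rpl22, Rps15, Rpl7a, Rps3, Rpl6 and Rps16. All are ribosomal. This was 10.8% of the 65 tested genes and 16.7% of the 42 ribosomal genes, against 7.11% of all probe sets tested. The median SE was 0.10 for ribosomal genes and 0.20 for all probe sets, and 0.11 for probe sets with a mean signal of at least 1000, which are the closer comparison. At a mean signal of at least 1000 the shares were 19.4% of 36 ribosomal genes and 11.6% of 1284 probe sets. With the arrays centred on their medians, a check chosen after seeing the data, 1 ribosomal gene (Rps24, 2.38% of 42) had every induced array lower, against 5.4% of all probe sets and 7.4% of those with a mean signal of at least 1000. Then 3 genes, Eef1a2, Eef1a1 and Eif2b4, had every induced array higher (4.62%), against 6.69% of all probe sets.

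Among the initiation factors the eIF4 group handles the mRNA cap, and 0 of its 5 genes were called, against 7.06% of all probe sets tested. Eif4e2 encodes a cap-binding relative of eIF4E that acts as a repressor of translation, and it read 1555, 1844, 1630 and 2112 in the uninduced and 1665, 2124, 2856 and 2844 in the induced arrays. Induced replicates 3 and 4 were high, and replicates 1 and 2 lay within or near the uninduced range. The difference was 0.38 ± 0.17 (adjusted p = 0.253). Over the 8 fits without an array it lay between 0.28 and 0.54, with 0 calls.

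Eif4e, the cap-binding protein itself, differed by 0.28 ± 0.20 (adjusted p = 0.525), with 289 to 493 in uninduced and 348 to 547 in induced samples, and by 0.17 without induced replicate 3. Over the 8 fits without an array, Eif4e lay between 0.17 and 0.43. The helicase gene Eif4a2 differed by 0.06 ± 0.08. Eif4h, whose protein stimulates that helicase, differed by -0.15 ± 0.11 (adjusted p = 0.537), or -0.08 without induced replicate 3. Its values without an array lay between -0.23 and -0.08. Eif4ebp1 encodes the inhibitor that holds eIF4E until mTOR phosphorylates it. Its probe set with the highest mean signal gave 0.16 ± 0.20 (adjusted p = 0.773), and 0.06 or 0.04 without induced replicate 3 or 4. Over the 8 fits without an array this probe set lay between 0.04 and 0.33. The others gave -0.40 ± 0.13 (adjusted p = 0.0913) and -0.29 ± 0.18, so no direction can be stated for this gene. Eif4a1, Eif4g1 and Eif5a had no probe set with a symbol of their own.

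The eIF2 and eIF2B genes act at the step that stress kinases block. With Eif2d, whose symbol begins alike, they were 8 genes. Of these 0 were called, against 7.06% of all probe sets tested. Eif2s1 encodes the alpha subunit, where those kinases place their phosphate, and differed by 0.22 ± 0.13 (adjusted p = 0.426), with 916 to 1349 in uninduced and 1294 to 1484 in induced samples. Eif2s3, the gamma subunit that binds GTP and the tRNA, differed by -0.13 ± 0.10 (adjusted p = 0.557). Eif2d, a factor for other routes of tRNA delivery, differed by -0.12 ± 0.11. Of the eIF2B subunits, Eif2b4 had the largest difference at 0.22 ± 0.10 (adjusted p = 0.294), and Eif2b1, Eif2b2, Eif2b3 and Eif2b5 lay between -0.06 and 0.09; a dimmer probe set of Eif2b3 gave 0.46 ± 0.22 (adjusted p = 0.293).

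The remaining initiation factors were also without a call. Eif5, which triggers GTP hydrolysis by eIF2, differed by 0.30 ± 0.16 (adjusted p = 0.384) at a mean signal of 387. Brighter probe sets that name Eif5 with a pseudogene copy, at means of 880 and 932, gave -0.20 ± 0.19 and 0.27 ± 0.15. Eif5b, which joins the subunits, differed by 0.13 ± 0.12. The eIF3 subunit genes Eif3b (0.10 ± 0.08), Eif3d (0.01 ± 0.09) and Eif3m (0.24 ± 0.28) all lay above 0.

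Probe sets of the same gene gave a measure of how far a value depends on the probes. Of 25 genes with more than 1 tested probe set, 14 had the same sign in all of them and 11 had both signs, with a median spread of 0.15 on the log2 scale. This spread was larger than the size of the ribosomal median (-0.12), but it is a range within single genes, factors included. It does not measure the error of a median over many genes. Of the 98 tested probe sets of the family 1 was called. A further 41 probe sets were annotated with several symbols, at least 1 of them from these families. Of these 40 were tested, 0 were called, 34 lay below 0 and 6 above, and their median was -0.12. Those above 0 include a probe set that names Rpl4 with rRNA and globin symbols and read a mean of 37.9. Of the 40 tested, 4 (10%) had every induced array below every uninduced one, against 7.11% of all probe sets tested. At a mean signal of at least 1000 the share of all probe sets was 11.6%. Among the 4, a probe set naming Rps4x read 14998 on induced replicate 3 against 23710 to 26683 on the other induced arrays. Another, naming Rpl7a, read 3112 there against 6980 to 8105.

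Genes with a tract at the start can be set beside those without. The median log2 difference was -0.12 for 25 ribosomal genes with a tract and -0.07 for 12 without. For the factors it was 0.08 for 7 with a tract and 0.10 for 15 without. Role separated the medians more than the tract did.

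Other genes of protein synthesis were taken from lists. Beside their calls stand 7.06% of all probe sets tested, and 15.9% of those with a mean signal of at least 1000. Of 13 tested kinases and phosphatases of translational control, Ppp1r15a rose and Ppp1ca fell, with a list median of 0.093. Ppp1r15a encodes the subunit that directs phosphatase 1 to eIF2 alpha; it rose from 584 ± 78 to 1180 ± 137 (SD, n = 4 each), by 1.01 ± 0.13 (adjusted p = 0.00046). Ppp1ca encodes a catalytic subunit of that phosphatase and fell from 3270 ± 123 to 2427 ± 460, by 0.45 ± 0.12 on the log2 scale (adjusted p = 0.0477). The Ppp1r15a call was kept in 18 of 18 alternatives, and that of Ppp1ca in 7 of 18 and in 1 of the 8 fits without an array (adjusted p up to 0.126 there).

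Of 13 tested targets of the integrated stress response, the programme set off by phosphorylated eIF2 alpha, 3 rose (Atf3, Ppp1r15a and Ddit3) and Psat1 fell, with a list median of -0.06. The Ddit3 call was kept in 4 of 18 alternatives and in 1 of 8 fits without an array. There were 0 calls among 12 tested ribosome biogenesis genes (median -0.07), 5 tRNA synthetases (-0.009), 6 genes of mitochondrial translation (-0.17) and 5 other genes of translation or with TOP mRNAs (-0.09). Lists this short can hold 0 calls at the share of 7.06% of all probe sets tested. In the biogenesis list Ubtf, which activates rRNA synthesis, differed by -0.56 ± 0.23 (adjusted p = 0.214). Its uninduced replicate 3 read 962 against 470 to 595 in the other uninduced arrays. Polr1d differed by -0.21 ± 0.10 (adjusted p = 0.316) at a mean signal of 1068. Myc differed by 0.63 ± 0.32 (adjusted p = 0.327), at a mean signal of 92.85, which is under the control range. Lower mRNA of a ribosomal protein is not a measure of ribosome number or of protein synthesis, neither of which was measured here.

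The medians of the roles were followed through 18 other ways of fitting the data. That of the ribosomal genes stayed between -0.14 and -0.08, and that of the initiation factors between 0.05 and 0.13. The large subunit median alone was -0.04 without uninduced replicate 4, and the initiation factor median was 0.05 without uninduced replicate 3 or 4. Minus the median of all probe sets in the same fit, the ribosomal median was -0.07 as reported, -0.02 without induced replicate 4 and -0.12 without induced replicate 1. None of the 4 role medians changed sign in these fits.

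**Figure D5:**
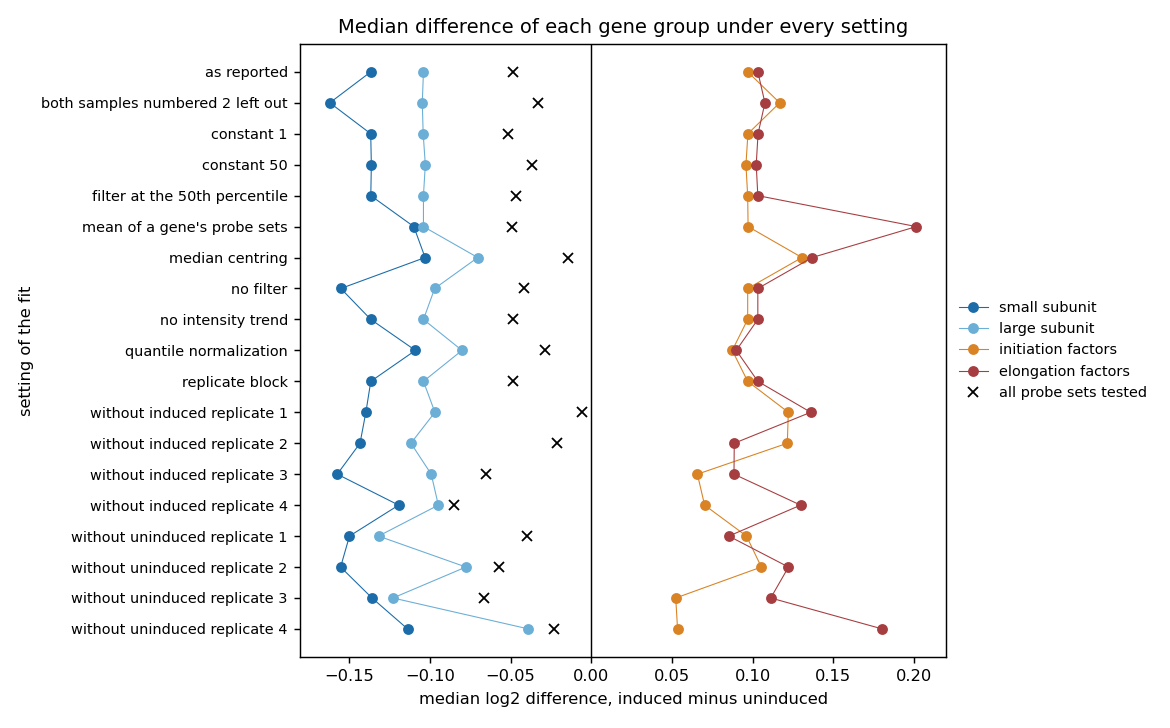
Median log2 difference, induced minus uninduced, of each role under the reported fit and 18 alternatives; crosses are the median of all probe sets tested in the same fit. The medians of both subunits stay below 0 and those of both factor groups above 0, while the crosses move with the array left out and the scaling.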

How the data were processed

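Total RNA of the 8 samples was hybridised to Affymetrix arrays, 1 array a sample. The deposited values are intensities that the authors had scaled: with 2% trimmed, the mean of each array was 500.8 to 500.9. No source used here names the program behind them. Of the 8799 probe sets, 7018 had 1 annotated symbol. The 59 controls and 2611 probe sets under the 30th percentile of mean signal were left out, and log2(signal + 7) of the other 6129 entered limma (version 3.58.1, R 4.3.3; lmFit, then eBayes with trend) without a replicate block. The titles share replicate numbers, but nothing says that they pair samples, so the numbers were not taken as pairs. Same-numbered arrays' deviations correlated at -0.14, 0.06, -0.09 and 0.19. Only for uninduced replicate 4 was the same-numbered induced array the one with the highest correlation. Errors of differences are standard errors; folds include the added 7. The fit was tested on simulated data. Members and lists were chosen with earlier results of these data known. Named were called genes, those with the lowest p or the highest signal in each role, and a list of central genes.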

Additional observations from a re-analysis of the deposited data

Results flagged for a closer look

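Within groups of 4, an array was set apart where its gap to the nearest other array exceeded the share of the group's range that Dixon's test allows at 95%. This happened in 8 of 130 groups, and chance gives about 1 in 20. Induced replicate 3 was low for Rpl7a (0.962 of the range), Rps3 (0.887) and Eif4h (0.927; 1216 against 1469 to 1489). Uninduced replicate 4 was high for Rps6 (0.964) and for Rpl4 (0.846; 4421 against 3285 to 3460). Induced replicate 4 was high for Rpl14 (0.856; 1517 against 1260 to 1297). Eif2b3 was low on induced replicate 1 (0.905; 478 against 574 to 584), and Eif2s3 on uninduced replicate 1 (0.887; 942 against 1061 to 1076).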

How the results depend on the processing

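Across 18 alternatives, 592 of 612 values of the 34 named genes kept their direction and side of the threshold. Of the rest, 14 turned sign, 3 lost a call and 3 gained 1. Only Eef1a2 was called in the reported fit, so for the other genes the same side means staying without a call. The count of 592 is therefore no measure of how stable a call is. The number of genes called higher was 0 with both samples numbered 2 left out, with median centring and with no intensity trend, and 1 to 2 when an array was left out; the number called lower was then 0 to 1. The median of all members was -0.09 to -0.02 over the alternatives. Eef1a2 passed in 15 of 18, with adjusted p between 0.0105 and 0.126. With the replicate block, which pairs arrays by number, 1 gene was higher and 0 lower, and Eef1a2 had an adjusted p of 0.0344; the block changed no call among the members. When all probe sets of a gene were averaged, Eif4ebp1 turned to -0.18 and Rps6 to 0.053; Rps6 was 0.015 with median centring, and Eif3d -0.015 with quantile normalization. Leaving out an array turned the sign of Eif3d (-0.051 to 0.059), Rps6 (-0.075 to 0.13), Eef2k (-0.052 to 0.18), Eif2b1 (-0.11 to 0.014) and Rps4x-ps9 (-0.053 to 0.16), which were all near 0; the cause was not tested. The number of ribosomal genes with every induced array below every uninduced one was 7 as deposited and 1 with median centring, an alternative chosen after seeing the data. Probe sets under a mean signal of 183 are limited by signal over background.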
